A study of Bos taurus with 12 samples.

Results

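The Hedgehog pathway genes DISP1, IHH, PTCH1, SMO, GLI1, GLI3 and HHIP and the progesterone-linked stromal factors NR2F2 and HAND2 were followed in bovine endometrium. Members were the probe sets to which the array's platform annotation gave 1 of these 9 gene symbols. The annotation named 8 such probe sets for 5 genes (DISP1, IHH, PTCH1, SMO and NR2F2) among 24016 non-control probe sets. GLI1, HHIP and HAND2 were not analysed here. The list of genes was selected on results of these same arrays, among them the DISP1 difference between the receptivity groups at day 3, so the tests of the members describe these pools and are no independent evidence. GLI3 was named only in a supplementary table of the study and is described apart.

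Endometrium of cyclic Simmental heifers was brushed from the uterine wall at day 3 or day 7 of a synchronised cycle, before an in vitro produced blastocyst was transferred in the next cycle. Animals with an embryo at the later ultrasound formed the high-receptive group (HR, labelled receptive), and animals without one formed the low-receptive group (LR, labelled non receptive). The groups were HR7, HR3, LR7 and LR3. Each held 3 pools, each pool held 5 samples and each pool was hybridised to 1 array, 12 arrays in all. Receptivity was assigned afterwards from the outcome of 1 transfer, and whether the same heifers entered the pools of both days was not stated. The p-values therefore measure only the spread between these pools.

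Hedgehog ligands are lipid-bound proteins that Dispatched (DISP1) frees from the producing cell. On the receiving cell the ligand binds Patched (PTCH1), which otherwise holds Smoothened (SMO) inactive, and SMO then acts at the primary cilium on the GLI transcription factors. In the mouse uterus progesterone induces Indian hedgehog (IHH) in the epithelium, the signal is received in the stroma, and the nuclear receptor NR2F2 (COUP-TFII) acts downstream there.

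Signals were estimated with PLIER, which models the probes of a set together, and are given in log2 units. Differences between groups are taken within 1 probe set. Probe sets are brought together in the filter by the array median, in the marker sums and means, in the DISP1 average and in the profile comparison. Array medians lay between 6.63 and 6.77. A probe set was tested if its SD over the 12 arrays reached 0.2 and it lay above the array median on every array of at least 1 group, which left 7339 of 24016. Of the 8 member probe sets, 4 were tested (1 of DISP1, the SMO probe set and 2 of NR2F2). The other 4 (IHH, PTCH1, the second of DISP1 and the third of NR2F2) never lay above the array median.

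The tissue label was checked against marker genes. The uterine epithelium list (13 of 15 genes matched) had a summed signal of 40457 to 49343 in HR7, 39132 to 45928 in HR3, 38264 to 41533 in LR7 and 38370 to 41004 in LR3, and no gene of it was at 0 on all arrays. Other cell lists moved with the day. The squamous epithelium list (8 of 14 matched) summed to 4047 to 5742 in HR7 against 438 to 562 in HR3, and to 1319 to 1726 in LR7 against 434 to 611 in LR3. The neutrophil list (6 of 7 matched) summed to 6911 to 12836 in HR7 against 366 to 512 in HR3, and to 3591 to 5885 in LR7 against 508 to 1043 in LR3. In both receptivity groups S100A8, S100A9 and S100A12 had higher log2 means at day 7, S100A12 with 12.52 in HR7 and 7.42 in HR3. CXCR1, matched for CXCR2, averaged 6.67 in HR7, 4.44 in HR3, 5.13 in LR7 and 5.01 in LR3. MPO averaged 3.54, 4.28, 3.98 and 3.07 in the same order, and ELANE 4.09, 4.09, 4.10 and 4.15. These 6 genes are named after their values were seen. No gene of these lists was at 0 on all arrays, and their part in the day differences described here was not tested.

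**Figure D1:**
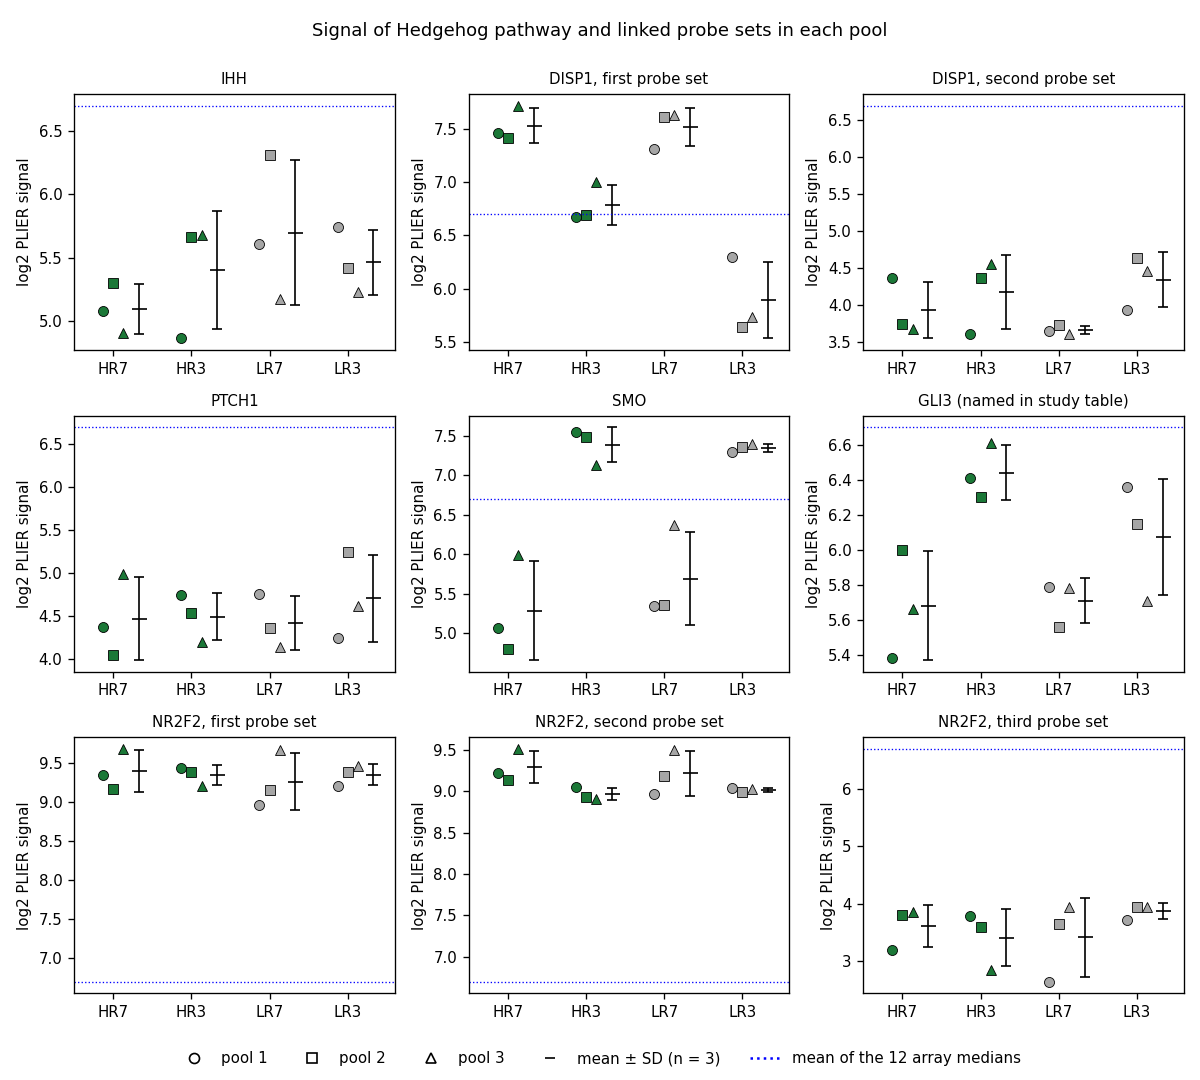
Log2 PLIER signal (y axis, a separate range in each panel) of the 8 member probe sets and of the probe set named GLI3, by group (x axis). Symbols are pools, bars are mean ± SD over 3 pools and the dotted line is the mean of the 12 array medians. SMO lies at 4.80 to 6.37 on the 6 day 7 arrays and at 7.13 to 7.54 on the 6 day 3 arrays, and the first DISP1 probe set is lowest in LR3.

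SMO, the transducer of the pathway, had a lower transcript abundance at day 7 in both receptivity groups. The HR7 pools had log2 signals of 5.07, 4.80 and 5.99, against 7.54, 7.48 and 7.13 in HR3. The LR7 pools had 5.34, 5.36 and 6.37, against 7.29, 7.36 and 7.39 in LR3. Every day 7 pool lay below every day 3 pool. Over all tested probe sets, 31.2% had HR7 wholly below HR3 and 25.9% had LR7 wholly below LR3. For SMO, pool 3 was the highest of its group at day 7 in HR and in LR. The means were 5.29 ± 0.62 in HR7 and 7.38 ± 0.22 in HR3, and 5.69 ± 0.59 in LR7 and 7.35 ± 0.05 in LR3 (SD, n = 3 each).

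SMO fell by 2.10 on the log2 scale in HR (SE 0.31, limma adjusted p = 0.0006), a 4.28-fold lower signal. In LR it fell by 1.66 (SE 0.31, limma adjusted p = 0.00236), or 3.15-fold. Over both receptivity groups SMO fell by 1.88 (SE 0.22, limma adjusted p = 4.31e-05). SMO passed the filter through HR3 and LR3, where it was high. It lay above the array median on 6 of the 12 arrays, those of day 3, and below it on all day 7 arrays. With the processing alternatives named below, leaving out no pool, its difference was -2.111 to -1.716 in HR. In LR it was -1.789 to -1.389. With every non-control probe set tested, the limma adjusted p of SMO was 0.00573 in HR and 0.0142 in LR.

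The fall of SMO was not shown to differ between the receptivity groups. The change in HR minus that in LR was -0.44 (SE 0.44, limma adjusted p = 1), with a 95% interval of -1.40 to 0.52. It was -0.79 without HR7 pool 3, -0.20 without HR7 pool 2 and -0.10 without LR7 pool 3, and no pool left out made it pass. Between HR and LR within a day, SMO differed by -0.40 at day 7 (95% interval -1.08 to 0.28) and by 0.04 at day 3 (95% interval -0.64 to 0.72). The day 7 difference was -0.76 without HR7 pool 3, -0.16 without HR7 pool 2 and -0.06 without LR7 pool 3. The order of the group means was HR7, LR7, LR3 and HR3 from low to high. Neighbours overlapped within each day, and the step between the days exceeded the spread.

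DISP1, which releases the ligand, was represented by a tested probe set that was higher at day 7 and an untested one that passed in no comparison. The tested one, called the first here, had 7.46, 7.42 and 7.72 in HR7, against 6.67, 6.69 and 7.00 in HR3. The LR7 pools had 7.31, 7.61 and 7.63, against 6.30, 5.64 and 5.73 in LR3. All day 7 pools lay above all day 3 pools, where 29% of all tested probe sets had HR7 wholly above HR3 and 25.4% had LR7 wholly above LR3. The HR3 pools lay above the LR3 pools by a gap of 0.37, whereas HR7 and LR7 overlapped.

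DISP1 was listed with its day 3 difference between HR and LR in view, so that difference is given as a description without a test. The group means were 6.79 ± 0.19 in HR3 and 5.89 ± 0.36 in LR3 (SD, n = 3 each), a difference of 0.90, or 1.86-fold. Over the 7339 tested probe sets, 5.64% had HR3 wholly above LR3. At day 7 HR averaged 7.53 ± 0.16 and LR 7.52 ± 0.18 (SD, n = 3 each), and HR minus LR was 0.02 (SE 0.19, 95% interval -0.39 to 0.43, limma adjusted p = 0.997).

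With the day, the tested DISP1 probe set rose by 0.75 in HR (SE 0.19, limma adjusted p = 0.0095) and by 1.63 in LR (SE 0.19, limma adjusted p = 0.000152). These are 1.68-fold and 3.09-fold higher signals. It passed the filter through HR7 and LR7, where it was high. With every non-control probe set tested, the limma adjusted p was 0.0329 in HR and 0.00178 in LR. Both day changes share their day 3 pools with the known day 3 difference, so neither is independent of the choice of the gene.

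The second DISP1 probe set had 4.36, 3.74 and 3.67 in HR7, against 3.61, 4.36 and 4.55 in HR3. It had 3.64, 3.72 and 3.61 in LR7, against 3.93, 4.64 and 4.46 in LR3. Its LR7 pools lay below its LR3 pools, where 25.9% of all tested probe sets had LR7 wholly below LR3. The means differed by -0.69 (limma adjusted p = 0.138 with every non-control probe set tested). The HR pools overlapped, with a day difference of -0.25, and at day 3 HR minus LR was -0.17. Averaged over both probe sets, the DISP1 value differed by 0.25 with the day in HR, by 0.47 with the day in LR and by 0.36 between HR3 and LR3.

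Spiked dap and thr transcripts, which serve as labelling controls, had a signal at the 5′ end minus that at the 3′ end that was lowest on average in LR3, as was the first DISP1 probe set. For dap this was -2.30 to -1.77 in HR7, -2.74 to -1.32 in HR3, -1.88 to -1.47 in LR7 and -3.13 to -2.66 in LR3. For thr it was -3.06 to -2.86 in HR7, -3.56 to -1.97 in HR3, -3.85 to -2.37 in LR7 and -4.35 to -3.52 in LR3. Between the days in HR the dap mean was -1.97 in HR7 and -1.82 in HR3. The thr mean was -2.94 in HR7 and -2.70 in HR3. In LR the dap mean was -1.62 in LR7 and -2.88 in LR3, and the thr mean -3.07 in LR7 and -3.80 in LR3. The part of labelling in the DISP1 differences was not tested.

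IHH, the ligand, and PTCH1, its receptor and a known target of the pathway, lay below the array median on every array. IHH had 5.08, 5.30 and 4.90 in HR7, 4.86, 5.66 and 5.68 in HR3, 5.61, 6.31 and 5.17 in LR7, and 5.74, 5.42 and 5.23 in LR3. PTCH1 had 4.37, 4.04 and 4.99 in HR7, 4.74, 4.53 and 4.20 in HR3, 4.76, 4.36 and 4.14 in LR7, and 4.24, 5.25 and 4.62 in LR3. The groups of both genes overlapped in each comparison of the days and of the receptivity groups.

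The widest IHH difference was -0.60 for HR7 minus LR7 (95% interval -1.29 to 0.08), with a day difference of -0.31 in HR and 0.23 in LR. PTCH1 differed by -0.02 with the day in HR (95% interval -0.71 to 0.66) and by -0.28 in LR (95% interval -0.97 to 0.40). These intervals do not show that the signals were alike, since a change of 1 log2 unit lies within the IHH interval.

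**Figure D2:**
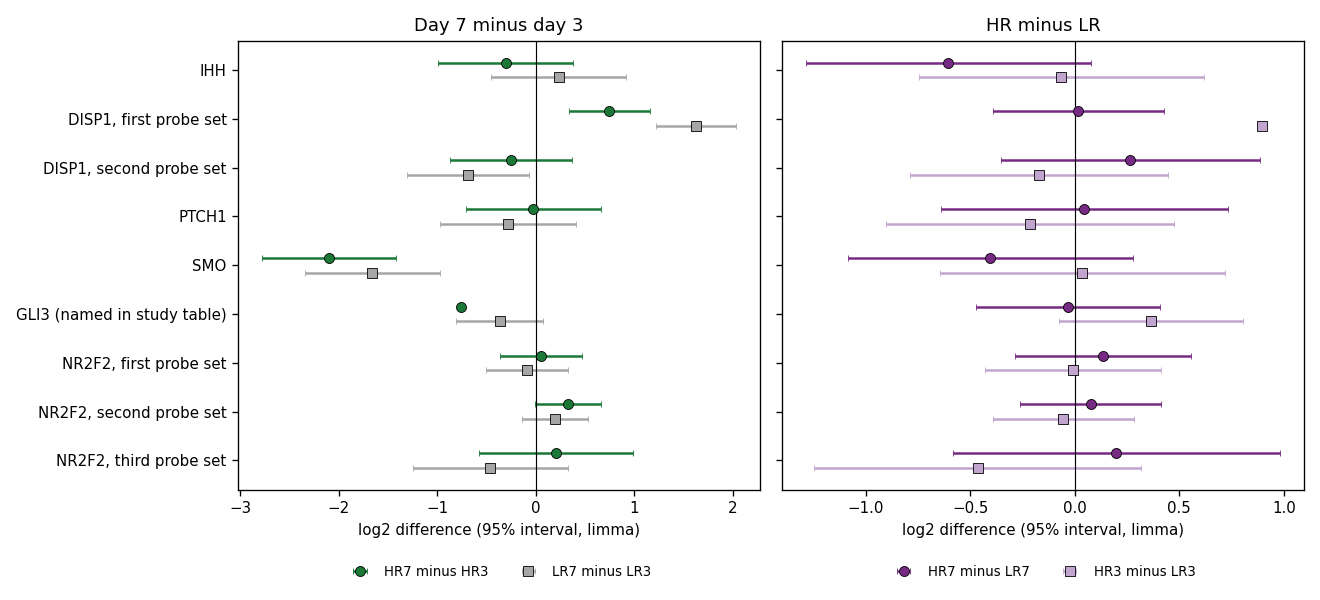
Log2 differences (x axis) of the 9 probe sets (y axis) for day 7 minus day 3 in HR and in LR (left) and for HR minus LR at day 7 and day 3 (right). Bars are 95% intervals from limma, and none are drawn for the DISP1 difference at day 3 and the GLI3 change in HR, which were known when these genes were listed. SMO lies at -2.10 in HR and -1.66 in LR, the tested DISP1 probe set at 0.75 and 1.63.

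NR2F2, the stromal nuclear receptor, did not pass in any comparison by its first probe set. It had 9.35, 9.16 and 9.68 in HR7, 9.44, 9.39 and 9.20 in HR3, 8.96, 9.15 and 9.67 in LR7, and 9.20, 9.39 and 9.46 in LR3. The groups overlapped in every comparison, and the HR7 and LR7 pools numbered 3 were the highest of the 12. The day difference was 0.05 in HR (95% interval -0.37 to 0.47) and -0.09 in LR (95% interval -0.51 to 0.33), and HR minus LR was 0.14 at day 7 and -0.01 at day 3.

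The second NR2F2 probe set had 9.22, 9.14 and 9.51 in HR7, against 9.05, 8.93 and 8.91 in HR3. It had 8.96, 9.18 and 9.50 in LR7, against 9.04, 8.99 and 9.02 in LR3. HR7 lay wholly above HR3 by a gap of 0.09, beside 29% of all tested probe sets, and LR7 overlapped LR3. The day difference was 0.33 in HR (limma adjusted p = 0.102), 0.20 in LR (limma adjusted p = 0.296) and 0.26 over both (SE 0.11, limma adjusted p = 0.0510). The call over both groups lay at the threshold and changed with the processing. The third probe set never lay above the array median. It spanned 3.19 to 3.85 in HR7, 2.84 to 3.79 in HR3, 2.64 to 3.95 in LR7 and 3.72 to 3.95 in LR3, with overlap between the days.

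Counted over the 4 tested member probe sets, 2 passed with the day in HR, where 41.5% of all tested probe sets passed. In LR 2 passed, beside 44.7% of all tested, and 2 passed over both receptivity groups, beside 65.9%. In each case 1 was higher at day 7 (DISP1) and 1 lower (SMO). The day 3 pools behind the choice of DISP1 enter each of these comparisons. Without DISP1, 1 of 3 passed in HR, 1 of 3 in LR and 1 of 3 over both, each time SMO. The shares of all tested probe sets were 20.7% higher and 20.8% lower in HR, 22.7% and 22% in LR, and 31.1% and 34.8% over both. These counts are no result about the pathway as a group. With every non-control probe set tested, 2 of the 8 member probe sets passed in HR, beside 11.2% of all, 2 of 8 in LR, beside 11.4%, and 2 of 8 over both, beside 26.5%, and each time these were SMO and the first DISP1 probe set, whose day 3 difference was known when the gene was listed.

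Between HR and LR, 0 of the 4 passed by the limma adjusted p at day 7, where 0.0681% of all tested probe sets passed. In the comparisons that contain the known day 3 difference of DISP1, the other 3 tested probe sets were counted, and 0 of 3 passed at day 3 (0% of all tested), over both days (0.0409%) and for the difference of the day changes (0%). At an unadjusted limma p under 0.05 the counts were again 0 of 4 at day 7 and 0 of 3 in each of the others. The shares of all tested probe sets at that limit were 4.51% at day 7, 7.06% at day 3, 7.04% over both days and 3.9% for the difference of the day changes.

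GLI3, the transcription factor that acts mainly as a repressor when the pathway is off, was given to 1 probe set by a study table that had selected it for its change with the day in HR. The HR7 pools had 5.38, 6.0 and 5.66, against 6.41, 6.30 and 6.61 in HR3. The LR7 pools had 5.79, 5.56 and 5.78, against 6.36, 6.15 and 5.71 in LR3. HR7 lay wholly below HR3, beside 31.2% of all tested probe sets, while LR7 and LR3 overlapped. The probe set never lay above the array median.

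The GLI3 change in HR was -0.76, given without a test. In LR it was -0.36 (SE 0.20, 95% interval -0.80 to 0.08, limma adjusted p = 0.262 with every non-control probe set tested). HR minus LR was -0.03 at day 7 and 0.37 at day 3, with overlapping pools on both days. The change in HR minus that in LR was -0.40, also given without a test, since it contains the change in HR.

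Part of the stroma markers fell with the day beside SMO. Of 19 listed stroma genes 17 matched and 13 were tested, and none was at 0 on all arrays. With the day, 4 of the 13 passed as lower and 0 as higher in HR, beside 20.8% of all tested probe sets lower, and 4 of 13 as lower and 0 as higher in LR, beside 22%. The sign of the difference was negative for 12 of the 13 in HR and 11 of the 13 in LR, including those that did not pass. The median difference of the 13 was -1.36 in HR and -0.63 in LR, beside -0.06 and -0.10 over all tested probe sets. The summed signal of the list was 11716 to 23419 in HR7 against 22905 to 28589 in HR3, and 9604 to 14194 in LR7 against 12713 to 21542 in LR3. Between HR3 and LR3, 0 of the 13 passed, but 13 were higher in HR3. Their median difference was 0.60, beside 0.01 over all tested probe sets. At day 7, 0 passed, 6 were higher and 7 lower in HR, with a median of -0.06. The part of stromal content in the day 3 differences of DISP1 and GLI3 was not tested. In bulk RNA, fewer cells of a type and less RNA per cell cannot be told apart.

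The size of the difference varied between the markers, as a pair chosen after their values were seen shows. Lumican (LUM), a proteoglycan of the stromal matrix, had group means of 8.87 in HR7 and 11.03 in HR3, and of 8.06 in LR7 and 10.28 in LR3. Vimentin (VIM), the intermediate filament of mesenchymal cells, had 10.59 in HR7 and 10.75 in HR3, and 10.37 in LR7 and 10.26 in LR3. LUM passed as lower in HR and in LR, whereas VIM did not pass with the day. The pair does not sum up the list, of which 4 of 13 passed in each group. COL1A1, also named after its values were seen, had the 1 positive difference in HR (0.01). In LR the 2 positive differences were those of COL1A1 (0.77) and VIM (0.11), and neither passed.

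Pool by pool, the mean log2 signal of the 17 markers was 8.19, 8.15 and 9.12 in HR7, against 9.51, 9.55 and 9.23 in HR3. It was 7.85, 8.53 and 8.59 in LR7, against 8.40, 9.18 and 9.07 in LR3. Pool 3 was highest at day 7 in both groups, as it was for SMO and for both tested NR2F2 probe sets. This was not particular to stroma. Pool 3 was also highest in both for the ciliated epithelium list (7.78 in HR7, 8.31 in LR7). It was so too for a list of T and NK cell genes (6.47 in HR7, 6.77 in LR7). For the uterine epithelium list pool 3 was not highest in either, with 10.95 in HR7 and 10.84 in LR7 against 11.19 and 10.99 in pool 1. The part of stromal content in the SMO fall was not tested.

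**Figure D3:**
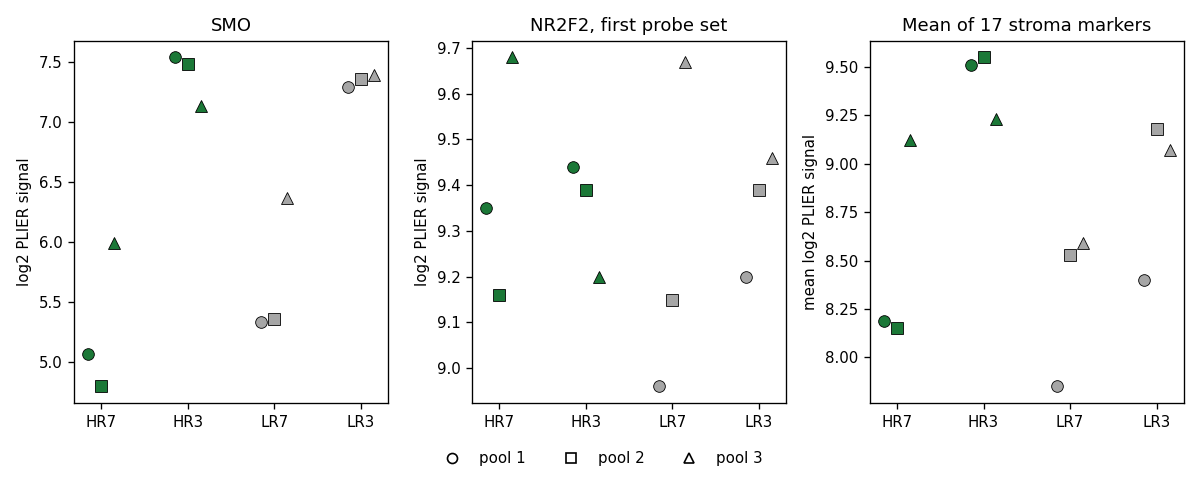
Log2 PLIER signal of SMO (left) and of the first NR2F2 probe set (middle), and mean log2 signal of the 17 matched stroma markers (right), by group (x axis), with 1 symbol for each pool. The third pool is the highest of its day 7 group in all 3 panels, and only in the SMO panel do all day 7 pools lie apart from all day 3 pools.

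Genes of the ciliated epithelium list, which concerns motile cilia, had lower means at day 7 in HR and in LR. All 4 matched genes of 10 listed were tested, and 4 passed as lower in HR, 0 in LR and 4 over both, beside 20.8%, 22% and 34.8% of all tested probe sets. The median difference of the 4 was -1.53 in HR and -0.48 in LR. For the difference of the day changes 0 of the 4 passed, beside 0% of all tested probe sets. The list summed to 348 to 925 in HR7 against 1013 to 1949 in HR3, and to 804 to 1312 in LR7 against 1112 to 1703 in LR3. No gene of it was at 0 on all arrays, and its part in the differences of cilium-linked pathway genes was not tested.

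Other genes of the Hedgehog pathway were counted from a list of 35, of which 17 matched and 6 were tested. With the day over both receptivity groups, 1 of the 6 passed as higher and 2 as lower, beside 65.9% of all tested probe sets in either direction. In HR 0 were higher and 2 lower, beside 41.5%, and in LR 1 higher and 2 lower, beside 44.7%. None passed between HR and LR at either day by the limma adjusted p. With every non-control probe set tested, 2 of the 17 matched genes had an unadjusted limma p under 0.05 at day 3 and 0 at day 7. Among the tested probe sets alone that share was 7.06% at day 3 and 4.51% at day 7. The share over all non-control probe sets is not given here, so these counts are no result about the list. The median day difference of the 6 was -0.22, beside -0.08 over all tested probe sets.

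EVC2, a protein of the cilium base that binds SMO, averaged 7.57 ± 0.21 in HR7 and 8.44 ± 0.15 in HR3, and 7.59 ± 0.12 in LR7 and 8.52 ± 0.27 in LR3 (SD, n = 3 each). It fell by 0.88 in HR (limma adjusted p = 0.00247) and by 0.93 in LR (limma adjusted p = 0.00177). KIF3A, a motor subunit of transport into the cilium, fell by 0.46 in HR (limma adjusted p = 0.0434) and by 0.72 in LR (limma adjusted p = 0.00611). BOC, a co-receptor for the ligand, differed by 0.52 in HR (limma adjusted p = 0.132), rose by 0.79 in LR (limma adjusted p = 0.0337) and rose by 0.65 over both (limma adjusted p = 0.0104). With every non-control probe set tested, KIF3A in HR (limma adjusted p = 0.0998) and BOC in LR (limma adjusted p = 0.103) no longer passed, while EVC2 passed in both groups.

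Over both groups EVC2 and KIF3A were lower at day 7, as was SMO, and BOC was higher. GRK2, a kinase of SMO, differed by 0.20 over both groups, CUL1, a scaffold of ubiquitin ligases, by -0.41, and the casein kinase CSNK1A1 by -0.02, none of which passed. With every non-control probe set tested, 1 of the 17 matched genes was higher (BOC) and 5 were lower over both groups, beside 26.5% of all in either direction. The untested genes among these 5 were STK36 (-0.31), PRKACB (-0.27) and ARRB2 (-0.46), named after their values were seen.

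Genes of progesterone action and of the growth factors between stroma and epithelium came from a list of 31, of which 20 matched and 7 were tested. With the day over both receptivity groups, 2 of the 7 passed as higher and 1 as lower, beside 65.9% of all tested probe sets in either direction. In HR 1 was higher and 1 lower, beside 41.5%, and in LR 0 were higher and 1 lower, beside 44.7%. None passed between HR and LR at either day by the limma adjusted p. With every non-control probe set tested, 1 of the 20 matched genes had an unadjusted limma p under 0.05 at day 3 and 2 at day 7. Among the tested probe sets alone that share was 7.06% at day 3 and 4.51% at day 7. The share over all non-control probe sets is not given here, so these counts are no result about the list. The median day difference of the 7 was 0.25, beside -0.08 over all tested probe sets.

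FGFR2, an epithelial receptor for stromal fibroblast growth factors, averaged 10.29 ± 0.03 in HR7 and 11.76 ± 0.11 in HR3, and 10.17 ± 0.02 in LR7 and 11.63 ± 0.21 in LR3 (SD, n = 3 each). It fell by 1.48 in HR (SE 0.13, limma adjusted p = 2.45e-05) and by 1.46 in LR (SE 0.13, limma adjusted p = 4.36e-05). FGFR3, a related receptor, rose by 1.09 in HR (limma adjusted p = 0.0405), differed by 0.61 in LR (limma adjusted p = 0.201) and rose by 0.85 over both (limma adjusted p = 0.0169). ERRFI1, a feedback inhibitor of the epidermal growth factor receptor that progesterone induces in the mouse uterus, rose by 0.34 over both (limma adjusted p = 0.0425). The other tested genes did not pass over both, with differences of 0.25 for the steroid receptor coactivator NCOA1, 0.28 for the growth factor FGF1, -0.11 for the membrane protein PGRMC1 and -0.08 for lactoferrin (LTF).

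FGFR2 and FGFR3 thus moved in opposite directions with the day. With every non-control probe set tested, FGFR2 alone of the 20 passed over both groups, beside 26.5% of all. FGFR3 and ERRFI1 then had limma adjusted p = 0.0591 and 0.0928. In HR, FGFR3 then had limma adjusted p = 0.127. The progesterone receptor gene PGR and the estrogen receptor gene ESR1 were matched but not tested, with differences of -0.08 and -0.03 over both groups, and are named here after their values were seen.

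**Figure D4:**
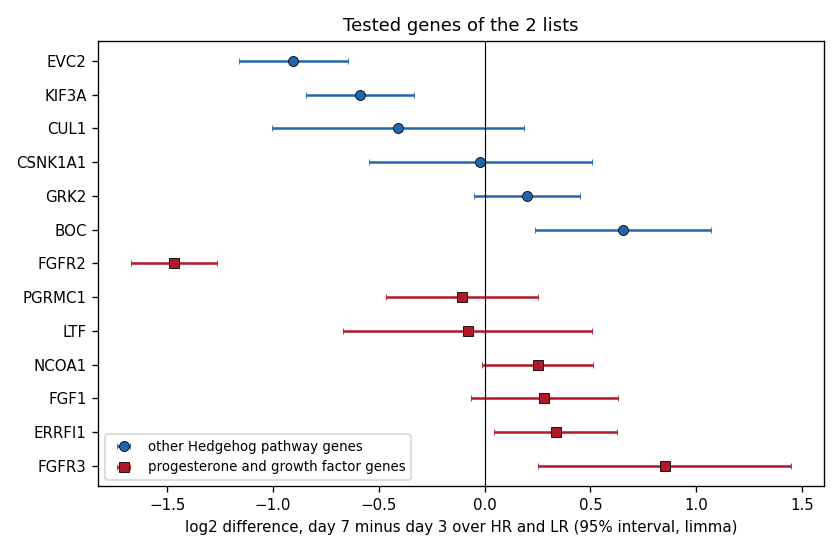
Log2 difference of day 7 minus day 3 over HR and LR (x axis, bars are 95% intervals from limma) for the 6 tested genes of the further Hedgehog list (circles) and the 7 tested genes of the progesterone and growth factor list (squares). FGFR2 at -1.47 and EVC2 at -0.91 lie lowest, and FGFR3 at 0.85 and BOC at 0.65 lie highest.

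The genes with profiles most like those of the tested members were found among 3783 genes by the root mean square difference of signals over the 12 arrays, after each profile was centred on its own mean. For SMO they were NNAT (0.29), NREP (0.30) and MAK (0.31), where the SD of SMO itself was 1.02. For the tested DISP1 probe set they were FIS1 (0.18), LOC504773 (0.30) and KIAA1549 (0.31), where its own SD was 0.70. FIS1 averaged 9.21 in HR7, 8.54 in HR3, 9.27 in LR7 and 7.95 in LR3. It was picked for its likeness to DISP1 on these same arrays, so a lowest mean in LR3 is no further observation. For the first NR2F2 probe set they were RAP2B (0.09), SH3BGRL (0.11) and SMARCA2 (0.11), where its own SD was 0.205, and for the second AKR1A1 (0.09), TMEM263 (0.11) and STX19 (0.12), where its own SD was 0.195. The profiles share the arrays and their normalization.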

How the data were processed

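The authors analysed the arrays in GCOS 1.1.1 with global scaling and made the signals with PLIER in Affymetrix Expression Console. The deposited values are on the log2 scale, run from 0 to 14.07 and were used as deposited. The 112 control probe sets were left out. The platform annotation gave 13292 probe sets 1 symbol, 86 several and 10638 none, and 0 symbols needed updating. The study's present calls were not used here, so the array median took their place beside its SD limit of 0.2.

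The model, fitted in limma 3.58.1 (R 4.3.3), had a mean for each of the 4 groups and used all 12 arrays, with Benjamini-Hochberg adjustment over the 7339 tested probe sets in each of 7 comparisons and a threshold of 0.05. The limma model was tried on simulated arrays with known changes, for HR3 against LR3 and for the day over both groups. The filter, the gene matching and the list counts were not tried in this way. Tables and figures were made in Python 3.11.15 with pandas 2.3.3, numpy 2.4.6 and matplotlib 3.10.9. The members and gene lists were chosen with earlier results of these data known, so their p-values are no independent evidence. A gene of a list is represented by its tested probe set with the highest mean signal, or its highest where none was tested. By rule, the text names all member probe sets, up to 8 tested genes of each further list by the lowest p of the day over both groups, and the 3 genes most like each tested member; other genes are named as chosen after their values were seen.

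The labels give the pools of each group numbers from 1 to 3. Deviations from the group means correlated, for equal numbers, at 0.198, 0.211 and 0.463 between LR7 and LR3 and at 0.136, 0.147 and 0.445 between HR7 and LR7, but at 0.118, 0.003 and -0.060 between HR7 and HR3. They correlated at -0.082, -0.03 and -0.47 between HR3 and LR3, and at -0.204, -0.101 and -0.279 between HR3 and LR7. Between LR3 and HR7 they correlated at -0.123, 0.005 and 0.19. The pool number as a block over all groups was an alternative, although HR and LR pools of equal number held different animals. The other alternatives were other filters, quantile normalization, centring of arrays, 16 added before log2, other estimates of the spread, only the groups compared, an unadjusted threshold and leaving out each pool. The number of pools limits the precision.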

Additional observations from a re-analysis of the deposited data

How the results depend on the processing

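With the pool number as a block (replicate block), 2, 2 and 2 member probe sets passed with the day (in HR, then LR, then the joint fit), and 0 passed in each comparison of HR with LR; no call changed. Leaving out each pool in turn left 2 passing in HR, 2 in LR and 2 to 3 in the joint fit, and SMO fell in every such fit, with differences of -2.448 to -1.853 in HR and of -1.997 to -1.482 in LR. Requiring signals above the array median on all 12 arrays keeps only the 2 NR2F2 probe sets, and 0 then passed in HR, 0 in LR and 1 over both. At an unadjusted p under 0.05, 1 passed for HR3 against LR3, 1 for HR against LR over both days and 1 for the interaction, each time the first DISP1 probe set, whose day 3 difference was known when the gene was listed, so this is no test. The second NR2F2 probe set passed over both groups with arrays centred (limma adjusted p = 0.0277), array weights (0.0453), 16 added (0.0484), an intensity trend (0.0456), an ordinary linear model (0.0485) and the stricter filter (0.0457), without HR7 replicate 2 (0.0462) and without LR7 replicate 1 (0.0226), and in HR with array weights (0.0171).

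Differences near 0 changed sign. With array weights the first NR2F2 probe set was 0.023 for HR3 minus LR3. With arrays centred, the first DISP1 probe set was -0.005 for HR7 minus LR7, the second NR2F2 probe set -0.019 for HR minus LR, and the first 0.016 with the day. Leaving out single pools gave -0.042 to 0.163 for SMO and -0.082 to 0.065 for the first NR2F2 probe set at day 3. At day 7 it gave -0.087 to 0.073 for DISP1, -0.013 to 0.342 for the first NR2F2 probe set and -0.050 to 0.220 for the second. For HR minus LR over both days these ranged over -0.010 to 0.168 and -0.052 to 0.083. For the first NR2F2 probe set the day difference ranged over -0.088 to 0.172 in HR, -0.295 to 0.060 in LR and -0.121 to 0.057 over both, and the interaction over -0.007 to 0.348. The cause was not tested. Of the 7339 tested probe sets, 1957 passed with the day in LR when only the groups compared were fitted, against 3280 with all groups.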
